A study of Mus musculus with 3 samples.

Results

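The 59 genes described here encode the actin cytoskeleton of mouse meningeal cells: the actins, the Arp2/3 complex, proteins that hold actin monomers, proteins that cap or sever filaments, and the switches, cross-linkers and motors around them. They were taken by symbol, and 59 of 59 were found among the 27998 genes of the deposited matrices. The data are single-cell 3′ RNA-seq of meninges from male C57BL/6J mice aged 10 to 12 weeks, in 3 libraries that each pooled 4 mice. HC replicate 1 and HC replicate 2 came from home cage controls, and CSD replicate 1 came from mice that went through 14 days of chronic social defeat and were chosen as stress-susceptible. Live nucleated single cells, negative for DAPI and positive for DRAQ5, were sorted in every group, and another CSD pool was lost when droplets were made. Because each library is a pool, animals cannot be told apart, and no p-value measures the spread between animals. All p-values rest on sums from 3 libraries, with a spread estimated partly from other genes and not from each gene alone.

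Actin monomers join into filaments that push the cell membrane outward. The Arp2/3 complex starts new branches on existing filaments once it is switched on by proteins of the WASP and WAVE families, which take their orders from the small GTPases Cdc42 and Rac. Formins and Ena/VASP proteins lengthen filaments, cofilins and gelsolin cut them, capping proteins stop their growth, and thymosins and profilin manage the store of monomers. Neutrophils, monocytes and other leukocytes use this machinery to crawl, to squeeze through vessel walls and to engulf particles, while fibroblasts use it mainly for adhesion and tension.

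Where 3 values follow each other below, they are always the first HC replicate, the second, and CSD. The libraries held 9891861, 8814690 and 10206236 unique molecular identifiers (UMIs, tags that count captured mRNA molecules). Barcodes with at least 500 UMIs, a gene number within the limits of the study and under 8.3% mitochondrial UMIs were counted as cells and numbered 2599, 1702 and 2756, with 17 of 7040 distinct barcodes seen in more than 1 library. Clusters made without the actin genes gave 13 cell types with at least 20 cells in every library, named from marker genes and written with "-like". In neutrophil-like cells the 10 neutrophil markers summed to 320216, 290983 and 328800 CPM, a share of UMIs in which 10000 CPM is 1%. The same markers still reached 25320, 23428 and 27241 CPM in fibroblast-like cells, a type that does not make them. HC replicate 2 stood apart in its free RNA, since barcodes of at most 100 UMIs, which hold no cell, took 24.1% of its UMIs, against 7.87% in HC replicate 1 and 5.48% in CSD replicate 1. Levels below are CPM within a cell type unless another scale is named. They compare cell types for 1 gene, not genes with each other, because 3′ counts are not divided by length.

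Summed over the 59 genes, actin cytoskeleton transcripts made up 5.48%, 6.15% and 5.94% of all UMIs in neutrophil-like cells. Monocyte-like cells, the other circulating phagocyte, gave 5.33%, 5.95% and 6.07%, and dendritic cDC-like cells gave 5.04%, 5.54% and 5.59%, so these 3 types overlapped at the top. Lymphocytes lay lower, with 4.42% to 4.62% in NK-like, 3.93% to 4.48% in T-like and 3.27% to 3.73% in mature B-like cells. The resident macrophages of the borders ranged from 3.77% to 4.14% and microglia-like cells from 3.66% to 3.88%. Fibroblast-like cells held the least, 2.31%, 2.68% and 2.40%, and did not overlap with any leukocyte type except pro-B-like cells, which ranged from 2.66% to 3.09%.

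A large part of these sums came from the thymosin gene Tmsb4x and the actin gene Actb. Without them, monocyte-like cells stood above neutrophil-like cells in every library, with 2.53%, 2.76% and 3.01% against 2.13%, 2.37% and 2.47%. This order is by share of UMIs, and neutrophil markers took a large share of the total in neutrophil-like cells. On the scale used below to compare these types gene by gene, 38 genes were lower in monocyte-like cells and 8 higher. Olfactory neuron-like cells then became the lowest type, with 0.94%, 0.88% and 0.86%, below fibroblast-like cells with 1.29%, 1.37% and 1.46%. HC replicate 2 exceeded HC replicate 1 in 13 of 13 types for the full sum. Without Tmsb4x and Actb it did so in 12 of 13.

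**Figure D1:**
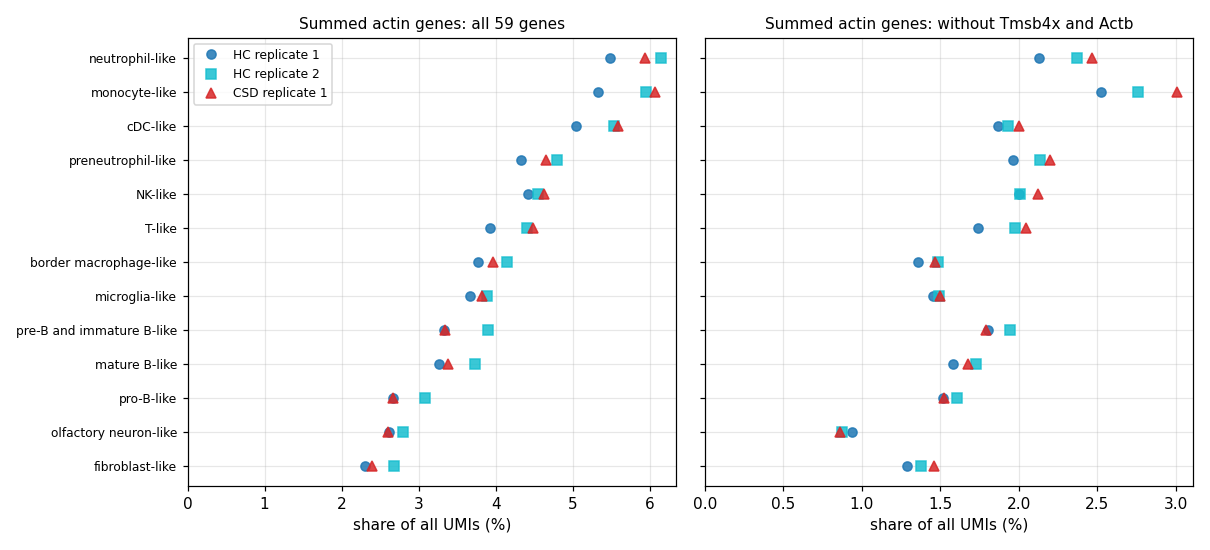
Summed UMIs of the actin cytoskeleton genes as a share of all UMIs (%, x axis) in 13 cell types (y axis), 1 point per library, with all 59 genes on the left and without Tmsb4x and Actb on the right. Neutrophil-like cells lie between 5.48% and 6.15% on the left, and monocyte-like cells move to the top on the right, between 2.53% and 3.01%.

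Promoter sequence was examined for these genes because serum response factor, a regulator of cytoskeletal genes, binds a short motif called the CArG box. RefSeq promoters of the GRCm38.p6 build, 250 bases before to 50 bases after the gene start, were at hand for 50 of the 59 genes. The 9 that could not be searched were Abi3, Actb, Arpc5l, Coro1b, Cyfip1, Diaph1, Nckap1l, Rac1 and Twf2. A CArG box, which reads the same on both strands, lay in 4 of these 50 (8%) and in 488 of 27025 promoters of all genes (1.81%). The 4 genes were Actg1, Arpc4, Myl6 and Vcl. The 3 promoters below are shown because their genes are described later, with the motif in capitals, which is a match of letters and not a binding site shown here. The Actg1 stretch is chr11:120348446-120348745 on the minus strand, Myl6 is chr10:128492960-128493259 on the minus strand, and Vcl is chr14:20929148-20929447 on the plus strand.
Actg1: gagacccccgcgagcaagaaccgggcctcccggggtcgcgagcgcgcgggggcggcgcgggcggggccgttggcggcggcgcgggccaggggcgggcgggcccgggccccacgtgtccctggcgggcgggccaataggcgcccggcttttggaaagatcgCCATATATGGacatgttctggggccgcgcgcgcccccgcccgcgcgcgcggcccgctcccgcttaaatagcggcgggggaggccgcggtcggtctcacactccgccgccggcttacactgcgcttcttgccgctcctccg
Myl6: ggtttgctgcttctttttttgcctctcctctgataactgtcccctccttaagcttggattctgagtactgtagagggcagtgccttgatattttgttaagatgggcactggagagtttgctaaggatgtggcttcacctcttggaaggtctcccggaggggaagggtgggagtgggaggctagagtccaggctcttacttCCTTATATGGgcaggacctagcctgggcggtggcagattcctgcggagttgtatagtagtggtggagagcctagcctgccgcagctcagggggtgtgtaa
Vcl: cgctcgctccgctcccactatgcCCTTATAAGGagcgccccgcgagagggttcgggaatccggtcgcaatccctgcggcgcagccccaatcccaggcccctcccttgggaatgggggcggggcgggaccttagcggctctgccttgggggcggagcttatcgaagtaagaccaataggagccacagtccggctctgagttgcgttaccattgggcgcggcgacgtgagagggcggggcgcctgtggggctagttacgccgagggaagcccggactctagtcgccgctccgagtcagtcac
The motif began 90 bases before the start in Actg1, 50 bases before it in Myl6 and 227 bases before it in Vcl. The level patterns of the 3 genes were not alike. By share of UMIs, Actg1 was highest in monocyte-like cells, Myl6 in neutrophil-like cells and Vcl in fibroblast-like cells.

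Across the 13 types and by share of UMIs, 18 genes had their highest mean level in monocyte-like cells and 13 in neutrophil-like cells. Another 5 had it in fibroblast-like cells and 5 in microglia-like cells. The share of all genes that peak in each type is not given. Because neutrophil markers take a large share of UMIs in neutrophil-like cells, the split between monocyte-like and neutrophil-like peaks depends on the scale. In 27 of the 59 the lowest library of the top type lay above the highest library of the next type, while 36.3% of all 5399 genes at least as abundant as the lowest gene of the set did so. The ratio between the highest and the lowest type was smallest, at 1.93, for Brk1, a small subunit of the WAVE complex, and its median was 4.71. The largest ratio, that of the severing protein gene Gsn, was against pre-B and immature B-like cells, where its 26.4 CPM from 12 UMIs lay below the 80.7 CPM estimated for free RNA. A low level can be free RNA alone. When the amount that free RNA would give was estimated from markers of other cell types and from the emptiest barcodes, 0 of the 59 genes were at or below it in neutrophil-like, monocyte-like, cDC-like, preneutrophil-like or border macrophage-like cells, 3 were in fibroblast-like cells, 4 each in mature B-like and in pre-B and immature B-like cells, and 8 in olfactory neuron-like cells. In NK-like, T-like and microglia-like cells 2 were, and in pro-B-like cells 1.

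**Figure D2:**
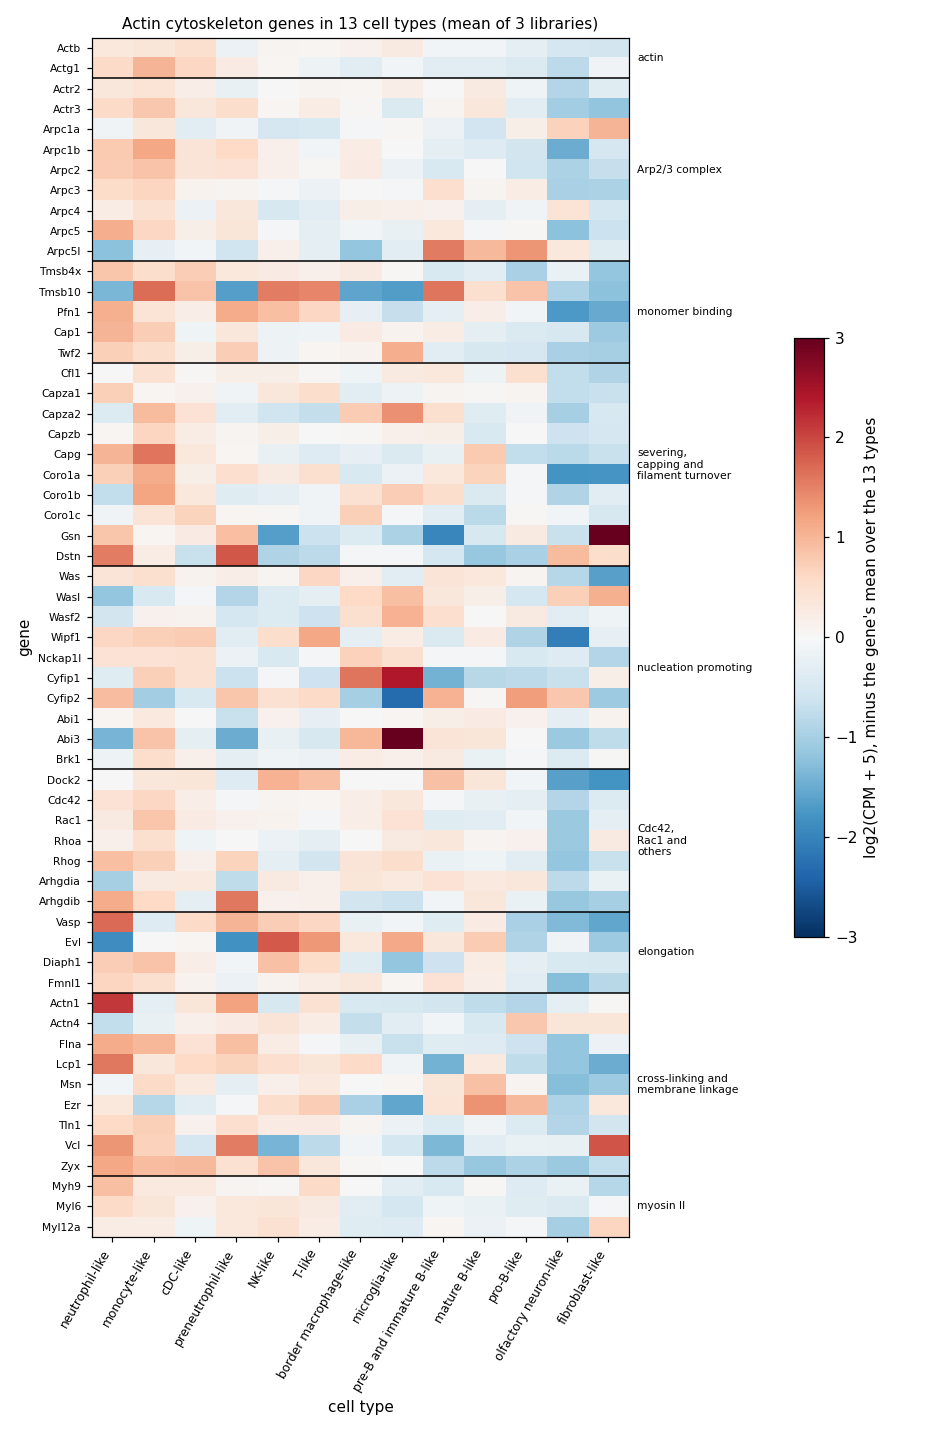
Level of the 59 genes (rows, grouped by role) in 13 cell types (columns), as log2(CPM + 5) of the mean over 3 libraries minus the gene's mean over the 13 types. Red is above that mean and blue below it; Gsn in fibroblast-like cells and Abi3 in microglia-like cells go past the end of the colour scale.

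Among the genes for monomer-binding proteins, Tmsb4x, whose product keeps actin monomers in reserve, was the most abundant by UMIs. It gave 28289, 27525 and 30023 CPM in neutrophil-like cells and 7553, 7065 and 7099 CPM in fibroblast-like cells. The related Tmsb10 went another way. It reached 3999, 3486 and 4647 CPM in monocyte-like cells and 4191, 3260 and 3524 CPM in NK-like cells. In neutrophil-like cells it gave 580, 426 and 451 CPM, and in microglia-like cells 481, 352 and 352 CPM, so the groups did not overlap. Pfn1, whose product profilin loads monomers onto growing ends, was highest in preneutrophil-like cells (1513, 1791 and 2088 CPM) and overlapped there with neutrophil-like cells (1478, 1730 and 1960 CPM). Twf2, for the monomer-binding protein twinfilin 2, had its top level in microglia-like cells, at 201, 171 and 179 CPM.

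Of the 9 genes of the Arp2/3 complex, 6 had their highest mean in monocyte-like cells, by share of UMIs. Arpc1b, for a subunit that many leukocytes prefer, gave 1710, 1932 and 2114 CPM there against 1293, 1432 and 1701 CPM in neutrophil-like cells and 557, 642 and 604 CPM in fibroblast-like cells. Its relative Arpc1a was highest in fibroblast-like cells, at 154, 168 and 187 CPM. Arpc5 peaked in neutrophil-like cells, with 766, 823 and 854 CPM against 555, 588 and 626 CPM in monocyte-like cells, without overlap. Its relative Arpc5l had its lowest mean in neutrophil-like cells (55.8, 78.4 and 54.5 CPM) and its highest in pre-B and immature B-like cells, with a mean of 462 CPM.

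The genes for the activators of Arp2/3 held some of the sharpest contrasts between cell types. Abi3, for a subunit of the WAVE complex, gave 356, 404 and 414 CPM in microglia-like cells, against a mean of 83.5 CPM in border macrophage-like cells, the next type. Cyfip1, for another WAVE subunit, gave 244, 162 and 246 CPM in microglia-like cells. Cyfip2, which can take the place of Cyfip1 in the complex, gave 6.84, 4.76 and 0 CPM there, from 4 UMIs in all, which lies below the free RNA estimate of 8.72 CPM. In neutrophil-like cells the order was turned round, with Cyfip2 at 82.0, 86.8 and 68.8 CPM and Cyfip1 at 33.2, 25.4 and 24.9 CPM. Was, the WASP gene of blood cells, gave 68.1, 66.8 and 73.7 CPM in neutrophil-like cells, while its broadly expressed relative Wasl gave 7.51, 8.45 and 7.46 CPM.

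Filament elongation genes were split between lineages. Vasp gave 357, 461 and 395 CPM in neutrophil-like cells and 86.4, 104 and 85.2 CPM in monocyte-like cells. Evl, of the same Ena/VASP family, was highest in NK-like cells, at 290, 310 and 247 CPM. In neutrophil-like cells Evl gave 24.1, 16.9 and 9.46 CPM, with a free RNA estimate of 14.2 CPM. The formin gene Diaph1 had its highest mean in NK-like cells (110, 115 and 106 CPM), within the range of monocyte-like cells (138, 78.3 and 105 CPM).

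Among genes for filament severing, capping and turnover, Gsn stood out in fibroblast-like cells, with 2424, 2222 and 3472 CPM against a mean of 222 CPM in preneutrophil-like cells, the next type. Dstn, for the cofilin relative destrin, was highest along the neutrophil lineage, with 809, 697 and 800 CPM in preneutrophil-like and 542, 615 and 683 CPM in neutrophil-like cells. In mature B-like cells it gave 74.5, 103 and 95.7 CPM, no more than the free RNA estimate of 100 CPM. Coro1a, for a coronin of leukocytes that binds filaments and Arp2/3, gave 1502, 1946 and 1893 CPM in monocyte-like cells and 215, 273 and 220 CPM in fibroblast-like cells, where free RNA alone was estimated to give 233 CPM. Cfl1, the main cofilin gene, ranged between a mean of 375 CPM in fibroblast-like and 978 CPM in pro-B-like cells.

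Rac1 and Cdc42, the switches named above, were highest in monocyte-like cells by share of UMIs. Rac1 gave 463, 526 and 613 CPM there and Cdc42 539, 584 and 595 CPM. Rhog, which acts upstream of Rac, had its highest mean in neutrophil-like cells (154, 175 and 183 CPM). Arhgdib gave 2611, 2912 and 3191 CPM in preneutrophil-like cells, 1763, 2157 and 2350 CPM in neutrophil-like cells and 427, 531 and 473 CPM in fibroblast-like cells. Its relative Arhgdia was lowest in neutrophil-like cells, at 103, 107 and 108 CPM. Dock2, for an activator of Rac in leukocytes, was highest in NK-like cells, at 133, 123 and 145 CPM, and in fibroblast-like cells it did not pass the free RNA estimate.

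Cross-linking and linkage genes included several with a neutrophil peak. Actn1, for an alpha-actinin that bundles filaments, gave 122, 130 and 112 CPM in neutrophil-like cells and 16.1, 24.1 and 17.9 CPM in monocyte-like cells. Lcp1, for the leukocyte bundling protein L-plastin, gave 610, 642 and 750 CPM in neutrophil-like cells and 258, 273 and 298 CPM in monocyte-like cells. Vcl, for the adhesion protein vinculin, had its highest mean in fibroblast-like cells (36.8, 74.5 and 65.9 CPM), overlapping with preneutrophil-like cells (46.6, 53.6 and 36.8 CPM). Msn and Ezr, whose products moesin and ezrin tie filaments to the membrane, both had their highest means in mature B-like cells. There Msn gave 382, 286 and 341 CPM and Ezr gave 107, 188 and 102 CPM.

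The 3 myosin II genes peaked in neutrophil-like or fibroblast-like cells. Myl6, an essential light chain gene, gave 2054, 2028 and 2296 CPM in neutrophil-like cells and 1056, 947 and 961 CPM in microglia-like cells. Myl12a, a regulatory light chain gene, was highest in fibroblast-like cells, at 536, 617 and 560 CPM. Myh9, the heavy chain gene of non-muscle myosin, was highest in neutrophil-like cells, at 125, 130 and 118 CPM.

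Ratios within a pair of related genes do not depend on how a library is scaled, and 17 pairs were followed through the 13 types. On a log2 scale, with 0.5 UMI added to each count, Cyfip1 over Cyfip2 was −1.51 ± 0.24 (SD, n = 3 libraries) in neutrophil-like cells, from 182 and 506 UMIs, and 2.76 ± 0.42 in border macrophage-like cells, from 199 and 26 UMIs. Its extremes, in pre-B and immature B-like and in microglia-like cells, rested on 5 UMIs of Cyfip1 and 4 UMIs of Cyfip2, both below the free RNA estimate, so no ratio is given for them. Neutrophil-like cells held an extreme of many pairs. There Vasp over Evl reached 4.66 ± 0.75, Actn1 over Actn4 2.70 ± 0.28, Was over Wasl 3.11 ± 0.18, Arpc5 over Arpc5l 3.71 ± 0.30 and Tmsb4x over Tmsb10 5.89 ± 0.25, each the highest mean of the 13 types. Free RNA was not subtracted, so the size of these ratios is uncertain. Evl, at 16.8 CPM, lay close to its free RNA estimate of 14.2 CPM. For Tmsb10 the level and estimate were 486 and 263 CPM, for Arpc5l 62.9 and 30.3, for Wasl 7.80 and 3.56, and for Actn4 18.8 and 5.47. The lowest means of those pairs were −0.57 ± 0.32 in microglia-like cells for Vasp over Evl and 1.61 ± 0.21 in pre-B and immature B-like cells for Tmsb4x over Tmsb10. The narrowest ranges were those of Actb over Actg1, which spanned 1.10 log2 units, and of Rac1 over Rhog, which spanned 1.19.

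Some types fell into clear classes by these ratios. For Tmsb4x over Tmsb10, neutrophil-like, preneutrophil-like, border macrophage-like and microglia-like cells all lay above 5 in each library. Monocyte-like cells, with 2.53 ± 0.11, lay with NK-like (2.39 ± 0.17) and T-like cells (2.34 ± 0.14) instead. Cfl1 over Dstn was near 0, meaning equal UMIs, in preneutrophil-like cells (0.04 ± 0.08), and highest in pro-B-like cells (3.26 ± 0.31). Some values rested on few UMIs, as Actn1 over Actn4 in pro-B-like cells, with 10 and 54 UMIs, where Actn1 did not exceed the free RNA estimate.

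**Figure D3:**
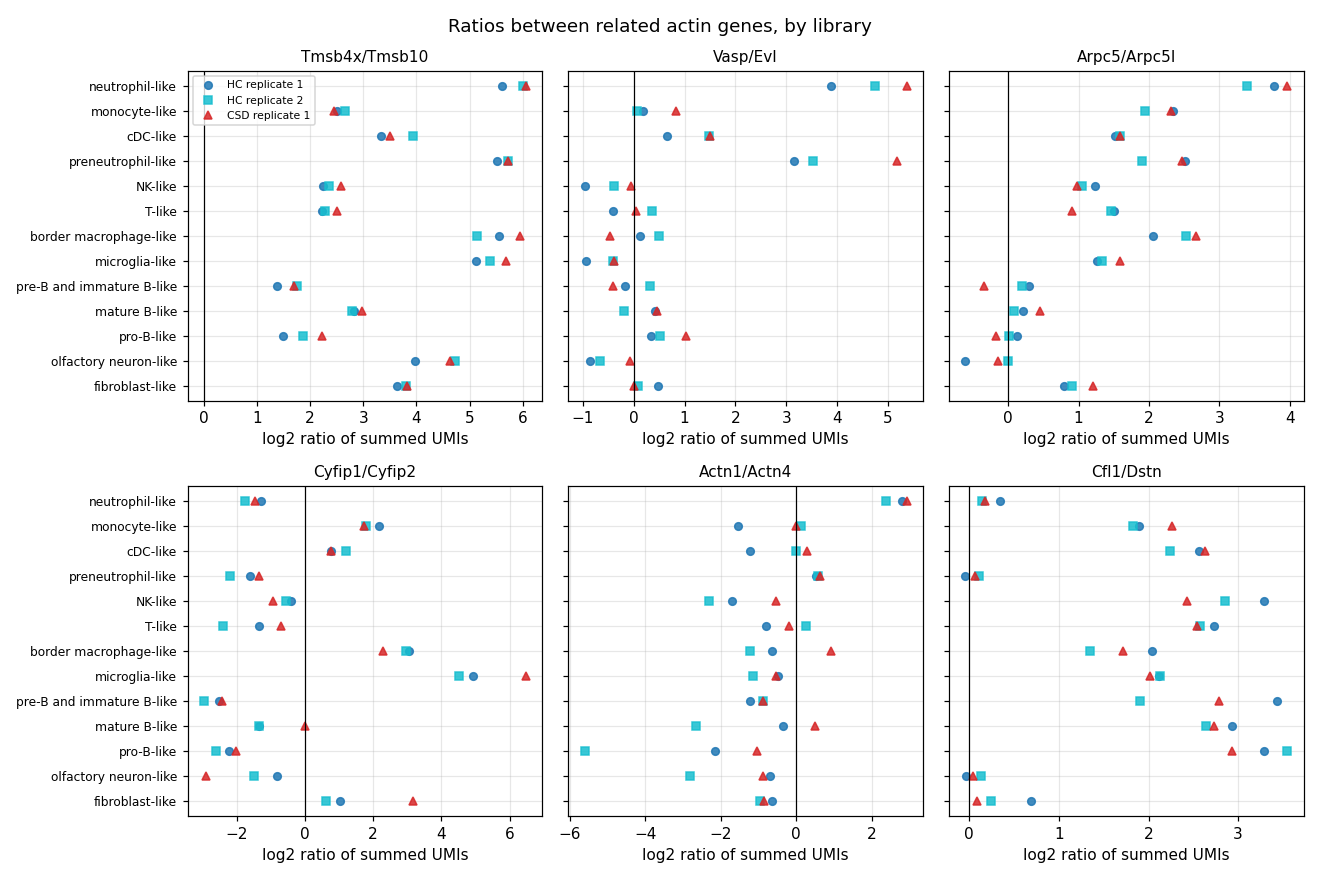
Log2 ratio of summed UMIs (x axis) within 6 pairs of related actin genes in 13 cell types (y axis), 1 point per library, with a line at equal UMIs. Neutrophil-like cells give the highest mean for Tmsb4x over Tmsb10 (5.89), Vasp over Evl (4.66), Arpc5 over Arpc5l (3.71) and Actn1 over Actn4 (2.70), while for Cyfip1 over Cyfip2 the point of microglia-like cells rests on 4 UMIs of Cyfip2.

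Monocyte-like and neutrophil-like cells were compared to ask how the machinery differs between 2 migrating myeloid cells. Neutrophil-like cells held more Vasp, Actn1, Cyfip2, Ezr, Dstn and Lcp1, and monocyte-like cells more Tmsb10, Abi3, Evl and Coro1b. On the TMM scale, which sets the bulk of genes equal between types, 8 genes were higher and 38 lower in monocyte-like cells at an adjusted p under 0.05 (edgeR, 59 tested), where 22.4% and 22.7% of all 9015 genes were. The median log2 difference was −0.54, against −0.01 for all genes. The scale mattered here, since neutrophil markers held the 290983 CPM or more given above, and library totals without TMM moved the median of all genes by 0.67. On totals 22 genes were higher and 14 lower, 8 and 14 of them called the same way on both scales, and Arpc1b, Coro1a, Rhoa and Actg1 were called opposite ways. Shares of all genes called on totals are not given, here or for the pairs below. Counts on totals therefore show only how calls depend on the scale. By role on the TMM scale, 7 of 9 Arp2/3 genes and 7 of 9 cross-linking and linkage genes were lower in monocyte-like cells. By share of UMIs most Arp2/3 genes were instead highest in monocyte-like cells, as given above, so their direction depended on the scale. Of the genes called on the TMM scale, 17 changed sign on library totals, and roles were not counted on totals.

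The calls below held on both scales. Actn1 differed most, with a log2 difference on the TMM scale of −3.33 ± 0.19 (SE, adjusted p = 3.07e-17), followed by Cyfip2 with −2.93 ± 0.22 (adjusted p = 3.74e-14) and Vasp with −2.80 ± 0.13 (adjusted p = 3.27e-20). Ezr (−2.01 ± 0.21), Dstn (−2.01 ± 0.12) and Lcp1 (−1.95) were lower as well. In the other direction stood Tmsb10 with 2.39 ± 0.10 (adjusted p = 6.87e-21), Abi3 with 2.08 ± 0.22 (adjusted p = 6.43e-10), Evl with 1.46 ± 0.21 (adjusted p = 4.39e-07) and Coro1b, a broadly expressed coronin gene, with 1.35 ± 0.13 (adjusted p = 2.24e-11). In neutrophil-like cells Abi3 gave 11.8 CPM against a free RNA estimate of 10.5 CPM, and Evl gave 16.8 against 14.2 CPM. The size of these 2 differences is therefore uncertain. Of 55 other genes of the pathway, 46 were tested, and on the TMM scale 4 were higher and 27 lower in monocyte-like cells.

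Mature B-like cells had lower levels of most of these genes than neutrophil-like cells. On the TMM scale 46 were lower and 5 higher (59 tested), where 22.1% and 14.7% of all 8418 genes were, and the median log2 difference was −1.20 against −0.15. On library totals, which moved the median of all genes by 0.68, 30 were lower and 9 higher. By role, 9 of 10 turnover genes, 8 of 9 Arp2/3 genes and 6 of 9 cross-linking genes were lower on the TMM scale. Actn1 (−4.02 ± 0.35, adjusted p = 2.71e-28), Dstn (−3.42 ± 0.19, adjusted p = 1.62e-73), Zyx, for the adhesion protein zyxin (−3.07 ± 0.25, adjusted p = 1.54e-33) and Vcl (−2.85 ± 0.49, adjusted p = 6.69e-08) fell furthest on the TMM scale. In mature B-like cells Dstn, Actn1 and Zyx did not exceed the free RNA estimate. Evl (2.25 ± 0.26, adjusted p = 2.31e-16), Arpc5l (1.62 ± 0.17, adjusted p = 6.16e-20), Abi3 (1.47 ± 0.37, adjusted p = 3.95e-04) and Tmsb10 (1.19 ± 0.12, adjusted p = 8.13e-22) were higher, and all 8 of these calls held on totals. Abi3 and Evl lay close to the free RNA estimate in neutrophil-like cells, as given above, so the size of their differences is uncertain. Of the other pathway genes, 45 were tested, with 4 higher and 23 lower on the TMM scale.

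Fibroblast-like cells were set against border macrophage-like cells as a resident stromal and a resident haematopoietic cell. Most genes of the set were lower in fibroblast-like cells, among them 7 of 9 Arp2/3 genes and 8 of 10 turnover genes, while Gsn, Vcl, Ezr, Arpc1a and Myl12a were higher. On the TMM scale 40 genes were lower and 5 higher (59 tested), where 19.7% and 16.3% of all 8388 genes were, and the median log2 difference was −1.14 against −0.08. On library totals, which moved the median of all genes by 0.47, 36 were lower and 7 higher. Gsn differed by 4.44 ± 0.22 (adjusted p = 1.72e-85), Vcl by 1.5 ± 0.44 (adjusted p = 0.00252), Ezr by 1.19 ± 0.35 (adjusted p = 0.00303), Arpc1a by 0.61 ± 0.23 (adjusted p = 0.0222) and Myl12a by 0.57 ± 0.18 (adjusted p = 0.0055). Dock2 (−2.72 ± 0.39, adjusted p = 5.72e-11), Lcp1 (−2.71 ± 0.22, adjusted p = 1.66e-34), the formin gene Fmnl1 (−2.70 ± 0.65, adjusted p = 1.46e-04) and Abi3 (−2.43 ± 0.35, adjusted p = 2.72e-11) were lower. In fibroblast-like cells Dock2 and Lcp1 did not exceed the free RNA estimate, and Fmnl1 gave 9.08 CPM against an estimate of 6.33 CPM. The size of these differences is therefore uncertain. With DESeq2 in place of edgeR, 1 gene was higher and 25 lower. Fibroblast-like cells of CSD replicate 1 numbered 28 and held 44471 CPM of 8 erythroid markers, against 1823 and 3366 CPM in the HC replicates. Without that library 5 genes were higher and 39 lower. Of the other pathway genes, 47 were tested, with 5 higher and 26 lower on the TMM scale.

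Along the neutrophil lineage most genes of the set were lower in preneutrophil-like cells, the dividing precursors, than in neutrophil-like cells. On the TMM scale 32 were lower and 3 higher (59 tested), where 16.9% and 18.1% of all 8756 genes were, and the median log2 difference was −0.42 against −0.01. On library totals, which moved the median of all genes by 0.15, 25 were lower and 4 higher. Wipf1, for a partner of WASP (−1.35 ± 0.25, adjusted p = 1.12e-06), Diaph1 (−1.22 ± 0.18, adjusted p = 6.67e-11), Fmnl1 (−1.15 ± 0.27, adjusted p = 1.30e-04) and Lcp1 (−1.12 ± 0.12, adjusted p = 2.33e-19) fell furthest. Actn4 (1.11 ± 0.24, adjusted p = 3.09e-05), Arpc5l (0.53 ± 0.16, adjusted p = 0.00359) and Arhgdib (0.33 ± 0.10, adjusted p = 0.00577) were higher. Without CSD replicate 1 the count dropped to 1 higher and 22 lower. Of the other pathway genes, 45 were tested, with 3 higher and 20 lower on the TMM scale.

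Neutrophil-like clusters were also divided into immature and mature clusters by marker genes, a comparison chosen after the data were seen. By share of UMIs and with no test, 14 of the 59 genes were higher at each step from preneutrophil-like through immature to mature neutrophil-like cells in every library, and 3 were lower at each step. Of all 5541 genes with a mean at least that of the lowest gene of the set, 12.1% and 10.9% did so. Tmsb4x went from a mean of 20211 CPM through 25485 to 33502 CPM, Lcp1 from 349 through 561 to 833 CPM and Fmnl1 from 17.4 through 22.7 to 53.2 CPM. Arhgdib went from 2905 through 2411 to 1589 CPM and Actn4 from 42.0 through 23.4 to 11.5 CPM. The other gene of this kind was Cfl1, with 790, 729 and 687 CPM.

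Between mature and immature neutrophil-like cells, 17 genes were higher and 14 lower in mature cells on the TMM scale (59 tested), where 12.9% and 8.61% of all 7884 genes were. On library totals, which moved the median of all genes by 0.05, 20 were higher and 13 lower. Fmnl1 (1.09 ± 0.20, adjusted p = 2.13e-04), Zyx (0.79 ± 0.10, adjusted p = 4.29e-07), Wipf1 (0.77 ± 0.18, adjusted p = 0.0023) and Cap1, for a monomer-recycling protein (0.58 ± 0.15, adjusted p = 0.00464) were higher. Vcl (−1.53 ± 0.21, adjusted p = 4.34e-06), Dstn (−1.14 ± 0.08, adjusted p = 3.70e-11), Actn4 (−1.05 ± 0.28, adjusted p = 0.00793) and Cyfip2 (−0.98 ± 0.15, adjusted p = 1.13e-05) were lower. Mature cells held fewer UMIs, with medians of 1278.5, 1323 and 1544 against 3453.5, 3053 and 3657 per cell, and with only cells of at least 1000 UMIs 3 genes were higher and 11 lower. Of the other pathway genes, 43 were tested, with 15 higher and 4 lower on the TMM scale.

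Actb, the gene of beta-actin, differed between the HC libraries in every cell type. In neutrophil-like cells it gave 5210, 10251 and 4714 CPM. In fibroblast-like cells it gave 2634, 6028 and 2286 CPM. HC replicate 2 exceeded HC replicate 1 by 1.73 to 2.29 times in the 13 types, while CSD replicate 1 lay at 0.78 to 1.20 times HC replicate 1. Actg1, the gene of the closely related gamma-actin, did not share this pattern, with ratios of 0.84 to 1.37 between the same 2 libraries.

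The same excess was present in barcodes too poor to be cells. Barcodes of at most 100 UMIs gave 8482, 26047 and 11780 CPM of Actb. For Actg1 they gave 1767, 2240 and 2002 CPM. The free RNA estimate for Actb in neutrophil-like cells was 1729, 7220 and 1553 CPM, so HC replicate 2 minus HC replicate 1 was 5491 CPM in this estimate and 5041 CPM as measured. What the estimate left was 3481, 3031 and 3161 CPM. In fibroblast-like cells the measured difference was 3395 CPM and that of the estimate 3491 CPM, and what was left of Actb was 280, 184 and −231 CPM. Other types did not all match so closely. In pre-B and immature B-like cells the estimate gave 6673 CPM against 3253 CPM measured, leaving 1872, −1548 and 884 CPM. In preneutrophil-like cells it gave 4877 CPM against 2913 CPM, leaving 2407, 442 and 1821 CPM. Only in NK-like and pro-B-like cells was the estimate the smaller, with 3810 against 4231 CPM and 3158 against 3346 CPM.

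**Figure D4:**
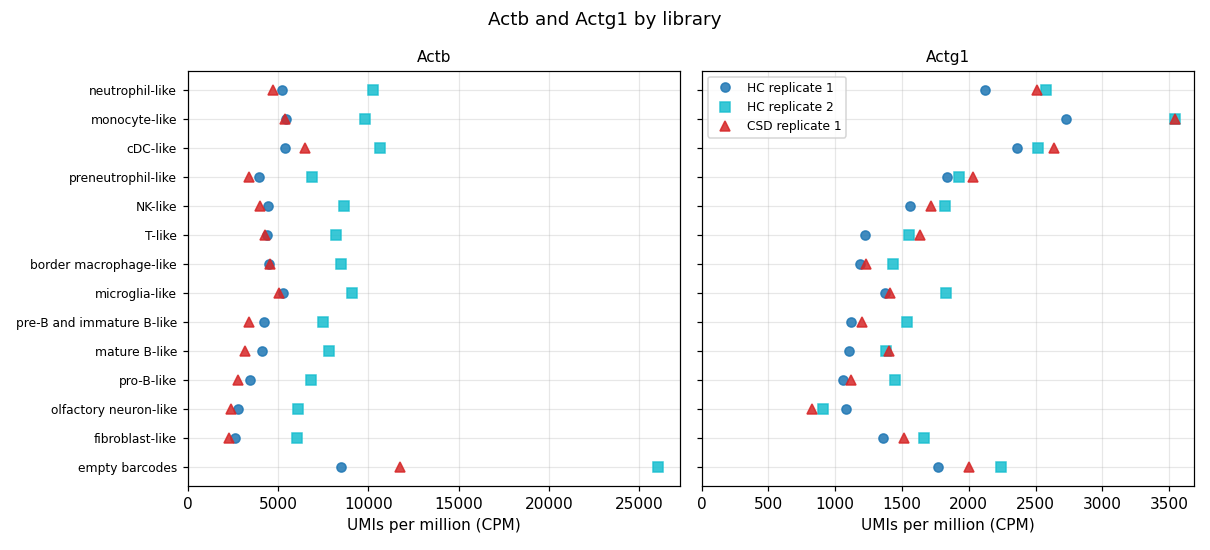
Level of Actb (left) and Actg1 (right) in CPM (x axis) in 13 cell types and in barcodes of at most 100 UMIs (y axis), 1 point per library. HC replicate 2 lies highest for Actb in every row, up to 26047 CPM in the emptiest barcodes.

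The comparison of CSD with HC asks whether defeat changed these genes within a cell type. In neutrophil-like cells most of the genes that could be tested were slightly higher in CSD, and none passed the threshold. With edgeR on summed UMIs, 0 of 43 genes were called (0.51% of all 1176 genes were), 3 had an unadjusted p under 0.05 (13.4% of all genes did), and DESeq2 called 0 as well. With no filter on low counts 5 of 59 were called, all higher in CSD, beside 1.8% of all 14757 genes. On library totals 1 of 43 was, Actb, which was lower, beside 4.34% of all genes. Of the 43, 32 had a positive log2 difference (49.8% of all genes did), with a median of 0.15 against −0.00 for all genes. CSD replicate 1 lay above both HC replicates in 30 genes (39.9% of all genes) and below both in 6 (37.2%). Between the HC replicates themselves the median difference of the 43 genes was 0.02. The free RNA share estimated for these cells also differed between libraries, at 20.4%, 27.7% and 13.2%, lowest in CSD. After subtracting that estimate 29 of the 43 genes were positive, with a median of 0.08 against 0.02 for all genes, and 0 were called. With a lone CSD library, whose spread is taken to equal that of the HC pair, library and stress cannot be told apart.

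The 5 highest differences were those of Arpc1b, Pfn1, Twf2, Arhgdib and Lcp1, given here on the TMM scale. Arpc1b gave 1512 and 1546 CPM in the HC replicates and 2009 CPM in CSD, a log2 difference of 0.39 ± 0.14 (SE, adjusted p = 0.338). Pfn1 gave 1728 and 1868 CPM against 2315 CPM (0.36 ± 0.14, adjusted p = 0.357), and Twf2 gave 147 and 148 CPM against 189 CPM (0.36 ± 0.14, adjusted p = 0.369). The genes were taken as the 5 largest differences in these same libraries, so CSD lying above both HC libraries in them is no separate support. Arhgdib (2061 and 2330 against 2776 CPM, 0.34 ± 0.14, adjusted p = 0.374) and Lcp1 (714 and 694 against 887 CPM, 0.33 ± 0.14, adjusted p = 0.375) followed. After subtracting free RNA these 5 differences were 0.29, 0.24, 0.25, 0.20 and 0.16, in the same order. Erythroid markers, which these cells do not make, also moved with the libraries, at 1934, 3367 and 5171 CPM, and border macrophage markers at 3874, 1648 and 1059 CPM, and their part in the differences was not tested.

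Genes that the study singled out for display, other than Arpc1b, had smaller differences. Levels in this paragraph are on the TMM scale too. Tmsb4x gave 33080, 29723 and 35468 CPM (0.18 ± 0.11, adjusted p = 0.493), Arpc3 0.22 ± 0.15, Arpc5 0.18 ± 0.14, Arpc2 0.14 ± 0.14, Actr3 0.16 ± 0.15 and Rac1 0.22 ± 0.15 on the log2 scale. The negative differences were led by Actb, with 6092, 11070 and 5569 CPM and −0.62 ± 0.33 (adjusted p = 0.441). Leaving out HC replicate 2 gave −0.13, and leaving out the other HC library gave −1.0. Gsn (−0.23 ± 0.15), Cyfip2 (−0.22 ± 0.17), Actr2 (−0.19 ± 0.18) and Tmsb10 (−0.10 ± 0.24) followed. Of 43 genes, 36 kept the sign of their difference when either HC library was left out. This largely restates the counts of genes with CSD above both HC replicates (30, beside 39.9% of all genes) or below both (6, beside 37.2%). Against the first HC replicate alone 35 were positive, and against the second alone 32.

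**Figure D5:**
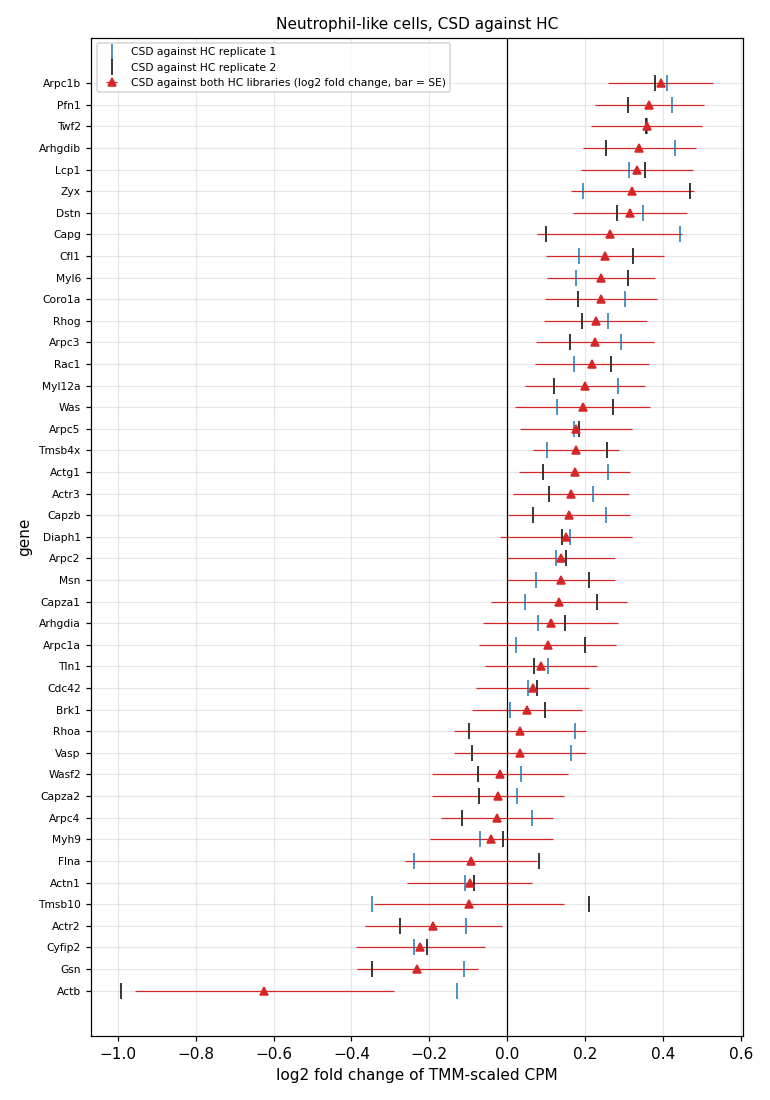
Log2 difference of CSD from HC in neutrophil-like cells on the TMM scale (x axis) for the 43 genes tested (y axis). Triangles with bars are the edgeR value and its SE, and ticks set CSD against HC replicate 1 and HC replicate 2 alone; 32 triangles lie above 0 and 0 pass the threshold.

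Immature and mature neutrophil-like cells taken apart gave the same picture of small positive differences. In immature cells 0 of 49 genes were called (0.608% of all genes), with 35 positive and a median of 0.11. In mature cells 0 of 38 were called (1.12% of all genes), with 27 positive and a median of 0.13. In preneutrophil-like cells 0 of 54 were called (0.0252% of all genes), and the median of 0.08 became −0.01 when the first HC library was left out and 0.16 when the second was. The counts at an unadjusted p under 0.05 in immature, mature and preneutrophil-like cells were 4, 0 and 0 (10.2%, 18.0% and 3.86% of all genes). CSD lay above both HC replicates in 29 genes of immature cells (35.7% of all genes) and below both in 10 (34.8%). In mature cells it lay above both in 25 (39.6%) and below both in 4 (38.3%). In preneutrophil-like cells the counts were 23 (28.6%) and 13 (31.1%).

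In monocyte-like cells 0 of 51 genes were called (0% of all 2982 genes), with 1 at an unadjusted p under 0.05 (6.61% of all genes) and a median log2 difference of 0.06. That gene was Evl, with 85.7 and 107 CPM in HC and 51.9 CPM in CSD on the TMM scale (−0.88 ± 0.29, edgeR, adjusted p = 0.722). By share of UMIs, barcodes of at most 100 UMIs gave 86.1, 71.4 and 39.3 CPM of Evl, also lowest in CSD. The part of free RNA in this difference was not tested. CSD lay above both HC replicates in 24 genes (34.5% of all genes) and below both in 16 (33.7%). In mature B-like cells 0 of 32 were called (0.188% of all genes), 2 had an unadjusted p under 0.05 (6.67% of all genes), and the median was 0.00. CSD lay above both HC replicates in 14 (34.8% of all genes) and below both in 11 (33.9%). In border macrophage-like cells 0 of 45 were called (0% of all genes), with 0 at an unadjusted p under 0.05 (2.76% of all genes). CSD lay above both HC replicates in 15 (30.4% of all genes) and below both in 10 (31.3%). The difference between the CSD effects in monocyte-like and neutrophil-like cells was tested for 41 genes and called for 0 (0% of all 1118 genes), with 2 at an unadjusted p under 0.05 (9.93% of all genes) and a smallest adjusted p of 0.491.

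CSD was tested against HC in 7 of the 13 types and in both neutrophil subsets, and in these Actb was the lone gene of the set to pass the threshold. Microglia-like, cDC-like, fibroblast-like, olfactory neuron-like, pre-B and immature B-like and pro-B-like cells were not tested for stress. In T-like cells Actb gave 5427 and 9513 CPM in the HC replicates and 4821 CPM in CSD on the TMM scale. The log2 difference was −0.63 ± 0.18 (edgeR, adjusted p = 0.0449), where 1 of 45 genes was called and 1.27% of all genes were. In NK-like cells it gave 5398 and 10124 CPM against 4808 CPM on the same scale. The difference was −0.69 ± 0.17 (edgeR, adjusted p = 0.00666), where 1 of 41 was called and 1.65% of all genes were. Among the genes of the set CSD lay above both HC replicates in 14 of 45 in T-like (30% of all genes) and 23 of 41 in NK-like cells (33.7%), and below both in 11 (34.5%) and 9 (32.5%). For Actb the HC replicates lay further from each other than CSD lay from the nearer of them. When HC replicate 2 was left out the differences were −0.14 in T-like and −0.17 in NK-like cells, and when its partner was left out they were −0.98 and −1.08.

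Summed over the set, CSD minus the HC mean was small beside the HC spread in most types. In neutrophil-like cells CSD (5.94%) lay between the HC replicates, and in monocyte-like cells (6.07%) above both. Over the 13 types CSD lay above both HC replicates in 4 and below both in 2. Without Tmsb4x and Actb these counts were 8 and 2. No test was made, since 2 libraries against 1 cannot give an exact permutation p below 0.333.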

How the data were processed

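Meninges of male C57BL/6J mice were profiled in 3 pools on 1 Chromium chip with version 2 3′ chemistry. The authors deposited UMI counts per gene and barcode in 1 matrix for all 3 libraries, made with Cell Ranger 2 on mm10 per the labels. The ending of each barcode was taken as the library, from the group numbers in the labels. All values were whole numbers and were used as deposited.

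Cells were clustered with scanpy 1.11.5 and leidenalg 0.10.2 after aligning libraries by mutual nearest neighbours, leaving out the actin and pathway genes, and clusters were named by a rule set after clusters were seen. Members and lists were chosen with earlier results of these data known. Doublets marked by Scrublet (1.92%, 0.94% and 5.12%, the last by score rank) were kept, and their removal was an alternative. UMIs were summed per library and type and tested with edgeR 4.0.16 (quasi-likelihood, TMM, two-sided, Benjamini-Hochberg over all genes tested, threshold 0.05). CSD against HC used genes in over 15% of cells and had 1 residual degree of freedom. Pairs of types used genes with at least 20 UMIs over 6 sums and a library term. The free RNA estimate scaled the profile of barcodes of at most 100 UMIs to marker genes of other types (stromal and B cell genes in myeloid cells, neutrophil genes elsewhere), which makes it an upper estimate. On simulated counts the CSD test recovered 93% of genes changed by 1 log2 unit in neutrophil-like, 55% in monocyte-like and 60% in mature B-like cells. Smaller changes, such as the median of 0.15 seen for the set in neutrophil-like cells, were not simulated, so recovery at that size is not known.

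Genes named were the most abundant members, every member past the threshold in a CSD test, the 5 highest and 5 lowest differences in neutrophil-like cells, the members shown by the study, the 4 leading calls in each direction of each pair, 17 pairs of relatives and the top member of each role; others were chosen after their values were seen. Actb, Actg1, Tmsb4x, Tmsb10, Cfl1 and Pfn1 have processed pseudogenes that can share reads, so their absolute levels are uncertain. The authors' own comparison was over single cells, which are not replicates, and was not repeated.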

Additional observations from a re-analysis of the deposited data

How the results depend on the processing

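No paired analysis was possible because HC and CSD share only replicate number 1. Among the 84 counts of called genes under other settings, 77 stayed within 1.5 times the main count and 7 moved. For CSD against HC in neutrophil-like cells, library totals without TMM gave 1 (Actb, lower) and no filter on low counts gave 5, all higher: Arpc1b, Pfn1, Arhgdib, Lcp1 and Tmsb4x, with a median of 0.30 for the set and −0.04 for all genes. The other settings for these cells, DESeq2 among them, gave 0. A mitochondrial limit of 5% gave 1 in monocyte-like cells, and no filter gave 1 in mature B-like cells, both lower. For preneutrophil-like against neutrophil-like cells, leaving out 1 library gave 23 to 37 and dropping the library term gave 20, against 35. For fibroblast-like against border macrophage-like cells DESeq2 gave 26, against 45. For mature against immature neutrophil-like cells, DESeq2 gave 17, the limit of 1000 UMIs 14 and no library term 7, against 31. Of the single genes named, 4 values turned sign, none of them past the threshold. In neutrophil-like cells Actr2 became 0.018 with no filter, and Tmsb10 became 0.11 with no filter, 0.20 without HC replicate 1 and 0.56 after subtracting free RNA. Another 652 gene values kept sign and call, 35 lost the call and 6 gained it. Arpc1a in fibroblast-like cells lost its call under 7 settings, and Arhgdib and Arpc5l in preneutrophil-like cells under 6 and 5. Leaving out an HC library in CSD against HC leaves 1 library a side, so only values were computed. In empty barcodes 0 of 8773 genes differed between CSD and HC, so leaving such genes out changed nothing. The CSD minus HC difference of the summed share moved by less than the spread between replicates in neutrophil-like, monocyte-like and mature B-like cells under each of 10 settings. The causes were not tested. Genes at few UMIs, such as Cyfip2 in microglia-like cells, are limited by depth, and intervals on sums would cover counting error only.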

Other observations

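Types with fewer than 20 cells in some library were left out of the comparisons. The 59 genes held 3.89%, 3.56% and 2.96% of UMIs in endothelial-like cells (12, 21 and 4 cells; values are in the order of the report). Erythroid-like cells, which shed most of their transcripts other than haemoglobin as they mature, gave 1.28%, 1.62% and 1.38% (10, 11 and 41 cells). These shares lay below those of every type described above. Plasmacytoid pDC-like cells gave 3.31%, 3.99% and 3.58% (27, 18 and 37 cells), below cDC-like cells in each library. Mast cell and basophil-like cells gave 3.63%, 6.26% and 4.47% (19, 10 and 23 cells), a wide spread from few cells. Myeloid progenitor-like cells gave 2.22%, 2.51% and 2.10% (22, 19 and 29 cells), below preneutrophil-like cells in each library.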
